A study of Mus musculus with 7 samples.

Results

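Mitochondrial respiratory chain complexes II, III and IV and the ATP synthase (complex V) were examined through their nuclear genes in mouse tibialis anterior (TA), a leg muscle built mainly of fast fibres. The members were the genes whose symbol begins with Sdha to Sdhd, Sdhaf, Uqcr, Cox followed by a digit or Atp5, together with Cyc1, which gave 58 of the 12239 genes in the table. Of these, 43 were counted as subunits, 13 encode assembly factors, and Atp5s and Atp5sl carry an Atp5 name without encoding a structural subunit. Cox7a2l, a factor that joins complexes III and IV, was counted among the subunits of complex IV. Complex II had 8 members, complex III had 9, complex IV had 24 and complex V had 17. The 4 WT libraries came from wild-type FVBN males and the 3 C2-/- libraries from FVBN males lacking Mybpc2, the gene of fast myosin-binding protein C, all aged 5 to 6 months by the labels. In the knockout allele exons 2 to 22 of Mybpc2 are replaced by a Neo cassette between LoxP sites, so that as described the whole animal carries it and not the muscle fibres alone. The comparison asked how the loss of this sarcomere protein in young fast muscle relates to gene expression, here for the oxidative machinery.

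Complex II (succinate dehydrogenase) passes electrons from succinate to ubiquinone, complex III (cytochrome bc1) passes them from ubiquinol to cytochrome c, and complex IV (cytochrome c oxidase) passes them to oxygen. Complexes III and IV pump protons, and complex V uses the resulting gradient to make ATP. Apart from complex II, each also holds subunits encoded in mitochondrial DNA, which are not analysed here, and several complex IV and V subunits exist as paralogs of which one form predominates in heart and skeletal muscle.

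The libraries held 2613277 to 15464499 reads in the table. WT replicates 1 to 3 held 14929214 to 15464499, WT replicate 4 held 4683853 and the C2-/- libraries held 2613277 to 4917936, so that depth and genotype cannot be told apart outside WT replicate 4. Mybpc2 stood at 12.68, 12.85 and 12.41 log2 CPM (log2 of reads per 1e6 reads after TMM scaling) in WT replicates 1 to 3, at 12.51 in WT replicate 4 and at 1.16, 1.67 and -0.47 in the C2-/- libraries, so that the targeted gene went against none of the 7 labels. Fast-fibre markers were abundant in every library, at a summed 160768 to 186351 CPM over 10 genes in WT and 101299 to 154910 CPM in C2-/-, and 4 of the 10 fell with none rising, against 25.0% and 20.2% of all genes. With transcript GC content fitted out of each library (the GC correction), the changes of these 4 were -1.39 for Pvalb, -0.39 for Mylpf, -0.055 for Actn3 and 0.15 for Atp2a1, and those of the other 6 were 0.14 to 0.69. Slow-fibre markers summed to 77.1 to 136 CPM over 6 genes in WT and 80.2 to 102 CPM in C2-/-, with none past the threshold. Of the marker lists for other cell types, endothelial genes summed to 300.003 to 425 CPM in WT and 276 to 362 CPM in C2-/- with 1 of 5 higher, and macrophage genes to 15.9 to 29.2 CPM and 32.3 to 49.2 CPM with 1 of 4 higher. The 2 adipocyte genes summed to 0.195 to 4.096 CPM in WT and 2.06 to 11.6 CPM in C2-/- with neither past the threshold, and the only erythroid gene in the table, Alas2, fell and stood at 4.21 to 5.18 CPM in WT and 1.14 to 2.24 CPM in C2-/-. The part of these markers in the changes of the respiratory chain genes was not tested. In bulk tissue, fewer cells of a type and less RNA per cell cannot be told apart.

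The respiratory chain genes moved in both directions. Past the threshold (limma, Benjamini-Hochberg adjusted p under 0.05 over all genes and a fold above 1.5), 14 members were higher and 15 lower in C2-/-, and 29 passed in neither direction. Of all 12239 genes, 20.2% were higher and 25.0% lower by the same rule, so that the members' shares lay near the background. By complex, 3 members of complex II rose and none fell, complex III had 1 rise and 3 falls, complex IV had 7 rises and 4 falls, and complex V had 3 rises and 8 falls. The group values did not overlap for 14 members that were higher and 18 that were lower, against 22.6% and 26.7% of all genes. With the libraries centred on their medians, which moved the median change of all genes from -0.14 to 0.02, the split was 21 higher and 12 lower, against 24.8% and 21.2% of all genes, so that the split over all genes turned as well. The 36 complex I subunit genes in the table, for comparison, held 12 rises and 9 falls.

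The median change over the 58 members was -0.10 on the log2 scale, and its sign turned under median centring (0.06) and under a correction for transcript GC content (0.14). It was 0.30 for complex II, -0.35 for complex III, 0.16 for complex IV and -0.42 for complex V, beside 0.18 for complex I and -0.14 for all genes. With the GC correction the medians of complexes II to V were -0.18, -0.23, 0.70 and 0.07, so that those of complexes II and V turned sign. Complex I then stood at 0.45 and all genes at 0.02. Quantile normalization gave 0.10, -0.64, 0.01 and -0.37 for complexes II to V. The uncorrected medians join rises of up to 2.85 with falls of down to -2.41 and describe few of the genes. The level per complex, as the summed CPM of its subunits, was 1978, 1697 and 2186 for complex II in WT replicates 1 to 3, with 2346 in WT replicate 4, and 1944, 2148 and 2185 in C2-/-. For complex III it was 3969, 3510 and 4333, then 4970, and 4969, 5813 and 5719 in C2-/-. Complex IV stood at 4176, 3633 and 4132, then 7054 in WT replicate 4, and 8462, 7334 and 7663 in C2-/-, while complex V stood at 12040, 10881 and 12809, then 11556, and 8924, 11775 and 11095. The C2-/- values of complex II and complex V thus overlapped the WT values, those of complex IV lay above all WT values, those of complex III lay above WT replicates 1 to 3 with C2-/- replicate 1 level with WT replicate 4, and in complexes II, III and IV WT replicate 4 was the highest WT library.

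**Figure D1:**
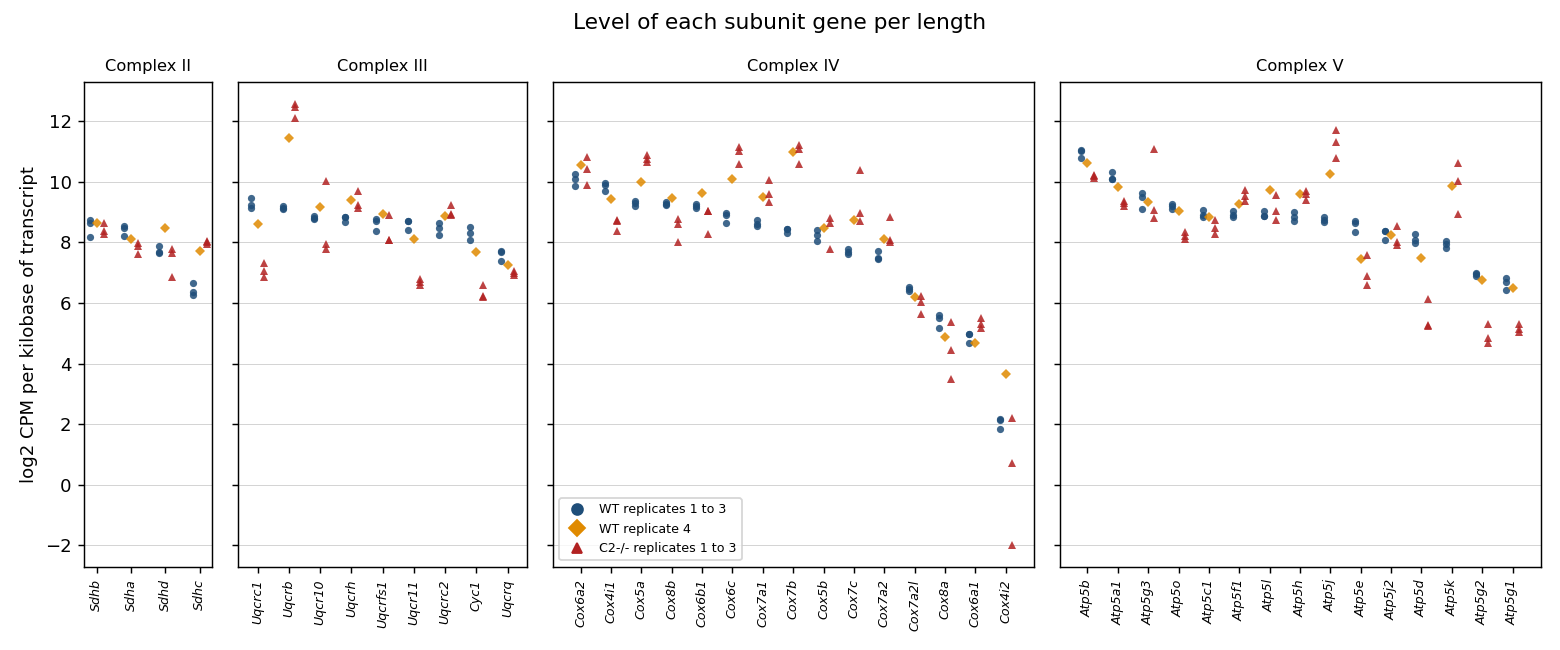
Level of the 43 subunit genes as log2 CPM per kilobase of transcript (vertical axis), by complex and in order of the mean of WT replicates 1 to 3, with 1 point per library. The WT replicates 1 to 3 form a narrow descending series in each complex, and in complex III the C2-/- points spread from about Cyc1 at the bottom to Uqcrb at the top.

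Per length, the subunits of a complex lay farther apart in C2-/- than in WT for complexes III and V. The SD over the 9 complex III subunits of log2 CPM per kilobase was 0.46, 0.56 and 0.48 in WT replicates 1 to 3, with 1.21 in WT replicate 4, and 1.76, 2.01 and 1.96 in C2-/-. For the 15 complex V subunits it was 1.10, 1.07 and 1.10, then 1.28, and 1.72, 2.16 and 1.97, and for the 15 complex IV subunits 2.17, 2.22 and 2.17, then 2.32, and 2.93, 3.43 and 2.48. The complex IV values rest in part on Cox4i2, which had few reads in C2-/-, and over the other 14 subunits they were 1.58, 1.61 and 1.57, then 2.01, and 2.18, 2.23 and 1.87, so that WT replicate 4 lay above C2-/- replicate 3. The 4 complex II subunits went the other way, from 1.07, 0.86 and 0.93, then 0.42, to 0.74, 0.21 and 0.29, with WT replicate 4 below C2-/- replicate 1. In each of the 4 complexes WT replicate 4 lay outside the range of the other WT libraries on the side of C2-/-. The order of the complex III subunits also changed, with Uqcrc1 highest over WT replicates 1 to 3 and Uqcrb highest over C2-/-.

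Among the subunits of complex II, Sdhc was the member that rose. Sdhc (chr1:171127165-171150603 on GRCm38, minus strand), a membrane anchor that binds ubiquinone, stood at 7.94, 8.04 and 8.34 in WT replicates 1 to 3, with 9.37 in WT replicate 4, and 9.61, 9.70 and 9.69 in the C2-/- libraries, all in log2 CPM as are the library values that follow. All 3 C2-/- libraries lay above the WT libraries, with WT replicate 4 next to them, and the change was 1.24 ± 0.30 (SE) (limma, adjusted p = 0.00814). Sdha, the flavoprotein that oxidises succinate, was measured at 10.001, 9.75 and 10.08 in WT replicates 1 to 3, with 9.63 in WT replicate 4, and 9.15, 9.43 and 9.51 in the C2-/- libraries. Its C2-/- values lay below every WT value, and its change of -0.50 ± 0.17 (SE) had an adjusted p of 0.038 in limma but did not reach the fold. Sdhb, the iron-sulphur subunit, overlapped between the groups at 8.82, 8.37 and 8.93 in WT replicates 1 to 3, with 8.84 in WT replicate 4, and 8.83, 8.48 and 8.57 in the C2-/- libraries. Its change was -0.11, and 0.90 with the GC correction, where it passed the threshold. The other anchor, Sdhd, had a change of -0.49 with overlapping groups.

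Among the 4 assembly factors of complex II 2 rose, against 20.2% of all genes. With the GC correction 1 rose, against 12.3%. Sdhaf4, which escorts the flavinated Sdha, stood at 3.50, 3.16 and 3.55 in WT replicates 1 to 3, with 3.31 in WT replicate 4, and 4.79, 4.62 and 5.63 in the C2-/- libraries. Here WT replicate 4 lay inside the other WT values, and the change was 1.64 ± 0.30 (SE) (limma, adjusted p = 0.00218). Sdhaf2, needed to attach FAD to Sdha, also rose, with a change of 0.72, which became -0.11 with the GC correction. Sdhaf1, an iron-sulphur factor for Sdhb, had the lowest change of the 4 at -0.56, from 3.81, 4.20 and 4.16 in WT replicates 1 to 3, with 5.58 in WT replicate 4, and 4.45, 3.20 and 4.004 in the C2-/- libraries. The groups overlapped and WT replicate 4 was the highest library, and 69.6% of its exon bases lie in exons of an antisense gene, whose reads cannot be told apart from its own where strand was not used in counting. Sdhaf3, the other iron-sulphur factor, had a change of 0.71 on 35 to 126 reads per library and did not pass, but passed under median centring, quantile normalization, limma without trend and voom (0.71 to 0.92), and its direction turned with the GC correction (-0.39).

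Of the 9 subunits of complex III 1 rose and 3 fell, against 20.2% and 25.0% of all genes. Under the GC correction 1 rose and 2 fell, against 12.3% and 8.32%. Uqcrb, a small subunit beside the ubiquinone site (chr13:66900617-66905378, minus strand), stood at 8.23, 8.30 and 8.21 in WT replicates 1 to 3, with 10.54 in WT replicate 4, and 11.21, 11.65 and 11.57 in the C2-/- libraries. The C2-/- libraries were the highest, WT replicate 4 lay between them and the other WT libraries, and the change was 2.65 ± 0.50 (SE) (limma, adjusted p = 0.00259). Of its 50-base stretches 43.4% also occur in transcripts of other genes, 4 of them pseudogenes, so that its reads may be split. Uqcrc1, a core protein of the matrix side (chr9:108936633-108949623, plus strand), went the other way, from 9.97, 9.86 and 10.20 in WT replicates 1 to 3, with 9.33 in WT replicate 4, to 7.79, 7.58 and 8.06 in the C2-/- libraries. Its groups did not overlap, WT replicate 4 was the lowest WT library, and the change was -2.03 ± 0.22 (SE) (limma, adjusted p = 0.000294), and -0.64 with the GC correction. Cyc1, cytochrome c1, which hands electrons to cytochrome c, behaved alike at 8.90, 8.69 and 9.10 in WT replicates 1 to 3, with 8.27 in WT replicate 4, and 7.20, 6.80 and 6.84 in the C2-/- libraries. Its change was -1.80 ± 0.21 (SE) (limma, adjusted p = 0.000368), and -0.66 with the GC correction, both past the threshold. Neither Uqcrc1 nor Cyc1 shares a 50-base stretch with another gene.

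The other core subunits of complex III did not pass. Uqcrc2, the partner core protein of Uqcrc1, stood at 9.38, 9.18 and 9.56 in WT replicates 1 to 3, with 9.80 in WT replicate 4, and 9.86, 10.17 and 9.83 in the C2-/- libraries. The C2-/- values were just above WT replicate 4, and the change was 0.47 ± 0.19 (SE) (limma, adjusted p = 0.0614), and -0.13 with the GC correction. Uqcrfs1, the Rieske iron-sulphur protein, overlapped between the groups at 9.16, 8.84 and 9.22 in WT replicates 1 to 3, with 9.38 in WT replicate 4, and 9.36, 8.51 and 8.53 in the C2-/- libraries, with a change of -0.35. Without C2-/- replicate 1 its change was -0.63 and passed. Of the small subunits, Uqcr11 fell by 1.80 without overlap, with a change of -0.23 after the GC correction that did not pass. Uqcrq, Uqcr10 and Uqcrh had changes of -0.51, -0.33 and 0.41 and did not pass, Uqcrq for the fold alone. Uqcr10 in C2-/- replicate 3, at 8.81, was the highest of the 7 libraries and in the other C2-/- libraries, at 6.73 and 6.57, the lowest, and without C2-/- replicate 3 its change was -1.05 and passed. Its direction turned without C2-/- replicate 2 (0.073) and with the GC correction (0.78).

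The promoter of Uqcrc1, the complex III member with the largest fall, is shown because it carries the letters searched for nuclear respiratory factor 1 (GRCm38.p6, chr9:108936398-108936697, plus strand, from RefSeq, 250 bases before to 50 after the start). The capitals mark GCATGCGC and its overlapping reverse complement.
Uqcrc1: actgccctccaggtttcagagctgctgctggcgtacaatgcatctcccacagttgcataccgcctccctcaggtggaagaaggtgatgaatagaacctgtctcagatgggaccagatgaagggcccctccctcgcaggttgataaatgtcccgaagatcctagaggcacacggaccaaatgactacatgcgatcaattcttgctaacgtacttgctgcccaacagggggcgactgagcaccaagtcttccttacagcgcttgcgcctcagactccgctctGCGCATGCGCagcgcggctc

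In complex IV, 5 of 15 subunit genes rose and 2 fell, against 20.2% and 25.0% of all genes. Under the GC correction 6 rose and none fell, against 12.3% and 8.32%. Cox7b, a small structural subunit (chrX:106015700-106022450, plus strand), had the largest rise, with 8.44, 8.32 and 8.43 in WT replicates 1 to 3, with 10.99 in WT replicate 4, and 11.22, 11.09 and 10.60 in the C2-/- libraries. WT replicate 4 lay among the C2-/- libraries and far above the other WT libraries, so that the groups overlapped. Its change was 1.93 ± 0.57 (SE) over the 7 libraries (limma, adjusted p = 0.0194) and 2.57 without WT replicate 4, and with the GC correction it was 1.05 and did not pass. Cox5a, a matrix-side subunit, stood at 8.67, 8.57 and 8.73 in WT replicates 1 to 3, with 9.37 in WT replicate 4, and 10.02, 10.11 and 10.24 in the C2-/- libraries. The groups did not overlap, and the change was 1.29 ± 0.20 (SE) (limma, adjusted p = 0.00122) and 1.30 with the GC correction. Cox6c and Cox7c, small transmembrane subunits, rose by 1.77 and 1.40, the latter with WT replicate 4 above the lowest C2-/- library and a change of 0.15 with the GC correction. Cox5b, which holds a zinc ion, did not pass, with 8.18, 7.83 and 8.02 in WT replicates 1 to 3, with 8.27 in WT replicate 4, and 8.58, 7.58 and 8.44 in the C2-/- libraries. The groups overlapped at a change of 0.13. Cox6b1, which faces the intermembrane space, was measured at 8.45, 8.49 and 8.57 in WT replicates 1 to 3, with 8.94 in WT replicate 4, and 8.34, 7.59 and 8.34 in the C2-/- libraries. The C2-/- values lay below all WT values, with a change of -0.52 ± 0.22 (SE) that did not pass (limma, adjusted p = 0.0714).

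The paralog pairs of complex IV were read in each library. Cox4i1, the widespread form of subunit 4, fell from 9.51, 9.31 and 9.56 in WT replicates 1 to 3, with 9.04 in WT replicate 4, to 7.995, 8.31 and 8.36 in the C2-/- libraries. There was no overlap, and the change was -1.13 ± 0.18 (SE) (limma, adjusted p = 0.00112) but 0.33 with the GC correction. Its counterpart Cox4i2, known from lung and low oxygen, was near the floor, with 1.72, 1.40 and 1.69 in WT replicates 1 to 3, with 3.20 in WT replicate 4, and 0.27, -2.42 and 1.77 in the C2-/- libraries. These values rest on 39 to 50 reads in the WT libraries and on 3, 0 and 16 in C2-/-, and the change of -2.13 ± 0.92 (SE) did not pass, but passed at -3.08 without C2-/- replicate 3. Cox6a1, the liver form of subunit 6A, stood at 4.17, 3.87 and 4.17 in WT replicates 1 to 3, with 3.88 in WT replicate 4, and 4.38, 4.50 and 4.70 in the C2-/- libraries. It was higher in every C2-/- library with a change of 0.51 that did not pass, and 2.06 with the GC correction, which did. Cox6a2, the heart and muscle form, was measured at 9.71, 9.29 and 9.55 in WT replicates 1 to 3, with 9.99 in WT replicate 4, and 10.26, 9.33 and 9.85 in the C2-/- libraries. Its groups overlapped at a change of 0.18, and with the GC correction it passed at 0.83.

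Cox7a1, the heart and muscle form of subunit 7A, stood at 7.58, 7.48 and 7.70 in WT replicates 1 to 3, with 8.44 in WT replicate 4, and 8.55, 9.003 and 8.29 in the C2-/- libraries. WT replicate 4 lay inside the C2-/- range, and the change was 0.82 ± 0.25 (SE) (limma, adjusted p = 0.0241), and 1.88 with the GC correction. The liver form Cox7a2 was measured at 6.89, 6.85 and 7.12 in WT replicates 1 to 3, with 7.52 in WT replicate 4, and 7.46, 7.41 and 8.22 in the C2-/- libraries. WT replicate 4 again lay inside the C2-/- range, and the change of 0.60 ± 0.24 (SE) did not pass (limma, adjusted p = 0.0618) but passed with the GC correction (1.10), under median centring (0.76) and without WT replicate 4 (0.74). The related Cox7a2l, a factor that joins complexes III and IV, overlapped at 6.64, 6.56 and 6.71 in WT replicates 1 to 3, with 6.37 in WT replicate 4, and 5.82, 6.20 and 6.41 in the C2-/- libraries with a change of -0.43. Cox8b, the heart and muscle form of subunit 8, fell from 7.85, 7.79 and 7.77 in WT replicates 1 to 3, with 7.998 in WT replicate 4, to 7.30, 6.55 and 7.14 in the C2-/- libraries. The C2-/- libraries lay below all WT libraries, WT replicate 4 was the highest, and the change was -0.86 ± 0.19 (SE) (limma, adjusted p = 0.00586) but 0.30 with the GC correction. Cox8a, the liver form, was low at 4.73, 4.30 and 4.65 in WT replicates 1 to 3, with 4.004 in WT replicate 4, and 3.57, 2.63 and 4.52 in the C2-/- libraries. It overlapped between groups, and its change of -0.85 ± 0.41 (SE) did not pass (limma, adjusted p = 0.114), but passed at -1.32 without C2-/- replicate 3 and at -0.99 with the replicate number fitted as a block. Its direction turned with the GC correction, to 0.67.

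Per length, the muscle forms Cox6a2 and Cox8b stood above the liver forms Cox6a1 and Cox8a in both groups. Mean levels in log2 CPM per kilobase were 10.19 ± 0.29 (SD, n = 4) for Cox6a2 and 4.83 ± 0.17 for Cox6a1 in WT, and 10.37 ± 0.47 (SD, n = 3) and 5.34 ± 0.16 in C2-/-. Those of Cox8b and Cox8a were 9.33 ± 0.10 and 5.28 ± 0.33 in WT, and 8.47 ± 0.40 and 4.43 ± 0.94 in C2-/-. Of 6 ratios compared between genotypes with an exact permutation test (two-sided, n = 4 and 3, 35 assignments), 4 were in complex IV, with differences of 0.99 for Cox4i1 over Cox4i2 (p = 0.571), 0.33 for Cox6a1 over Cox6a2 (p = 0.371), 0.22 for Cox7a1 over Cox7a2 (p = 0.6) and 0.01 for Cox8a over Cox8b (p = 1). These differences did not pass as deposited, with an SD over the C2-/- libraries of 0.54 to 2.14. They rest on single libraries, and leaving out each in turn gave -0.20 to 1.87 for Cox4i1 over Cox4i2, 0.096 to 0.63 for Cox6a1 over Cox6a2, -0.12 to 0.64 for Cox7a1 over Cox7a2 and -0.39 to 0.25 for Cox8a over Cox8b. The lowest value of the first 3 was that without C2-/- replicate 2, which had no read of Cox4i2, and with 2 reads added before the log the first was 0.16. With the GC correction the difference of Cox6a1 over Cox6a2 was 1.23 with p = 0.0286 in the exact permutation test, the smallest it can give.

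Promoters of Cox7b and Cox8b, the complex IV subunits with the largest rise and the largest fall past the threshold among those with a single promoter sequence, are shown to compare their base composition (GRCm38.p6, chrX:106015450-106015749, plus strand, and chr7:140900397-140900696, minus strand, from RefSeq). Neither holds any of the letters searched, so no base is in capitals, and their GC contents were 43.3% and 48.3%.
Cox7b: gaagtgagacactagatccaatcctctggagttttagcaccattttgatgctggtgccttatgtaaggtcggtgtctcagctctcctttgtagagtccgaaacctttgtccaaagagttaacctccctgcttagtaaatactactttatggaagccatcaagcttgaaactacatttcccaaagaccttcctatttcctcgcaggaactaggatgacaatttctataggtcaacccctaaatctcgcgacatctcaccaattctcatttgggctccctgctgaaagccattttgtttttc
Cox8b: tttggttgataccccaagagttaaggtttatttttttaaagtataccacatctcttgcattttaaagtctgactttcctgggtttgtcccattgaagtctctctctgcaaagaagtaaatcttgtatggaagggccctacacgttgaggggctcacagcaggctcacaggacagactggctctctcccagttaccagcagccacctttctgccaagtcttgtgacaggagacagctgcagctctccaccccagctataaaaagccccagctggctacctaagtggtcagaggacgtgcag

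The assembly factors of complex IV held the largest rise of all members. Cox17, the chaperone that brings copper to complex IV (chr16:38346991-38352763, plus strand), stood at 4.93, 4.97 and 4.88 in WT replicates 1 to 3, with 8.32 in WT replicate 4, and 8.72, 8.71 and 8.44 in the C2-/- libraries. WT replicate 4 lay with the C2-/- libraries, just under the lowest of them and over 3 log2 units above the other WT libraries. The change was 2.85 ± 0.72 (SE) (limma, adjusted p = 0.00991), 3.70 without WT replicate 4 and 2.45 with the GC correction. Cox19, another copper-handling factor, had the largest fall, from 4.41, 4.43 and 4.45 in WT replicates 1 to 3, with 3.73 in WT replicate 4, to 3.34, 3.73 and 2.66 in the C2-/- libraries. WT replicate 4 was lower than the other WT libraries and the highest C2-/- value was just under it, with a change of -1.01 ± 0.33 (SE) (limma, adjusted p = 0.0305) that did not pass with the GC correction at -0.68. Cox20, which stabilises the newly made subunit 2, rose by 2.38, but 91.1% of its exon bases lie in exons of Hnrnpu on the other strand, and the use of strand in counting is not given in the sources used here. Hnrnpu itself had a change of 0.03. Cox14, which acts on subunit 1, fell by 0.91 and stood at 0.10 with the GC correction.

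The other 5 assembly factors of complex IV did not pass, with changes of -0.31 to 0.59. Cox11 inserts copper, Cox10 and Cox15 make haem A, and Cox18 and Cox16 act on subunit 2. Cox11 and Cox16 are uncertain, as 50.5% and 88.7% of their 50-base stretches occur in other genes. In Cox18 and Cox16 WT replicate 4 was the lowest library of all 7, at 2.84 and 2.22. Of the complex IV calls, that of Cox7b was lost without C2-/- replicate 1 (1.80) or C2-/- replicate 2 (1.86), and that of Cox7c without C2-/- replicate 3 (0.89). That of Cox7a1 was lost without any 1 of WT replicates 1 to 3 or C2-/- replicates 1 and 2 (0.62 to 0.85), and that of Cox19 without any 1 of WT replicates 1 to 3 or C2-/- replicates 1 and 3 (-1.06 to -0.72).

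**Figure D2:**
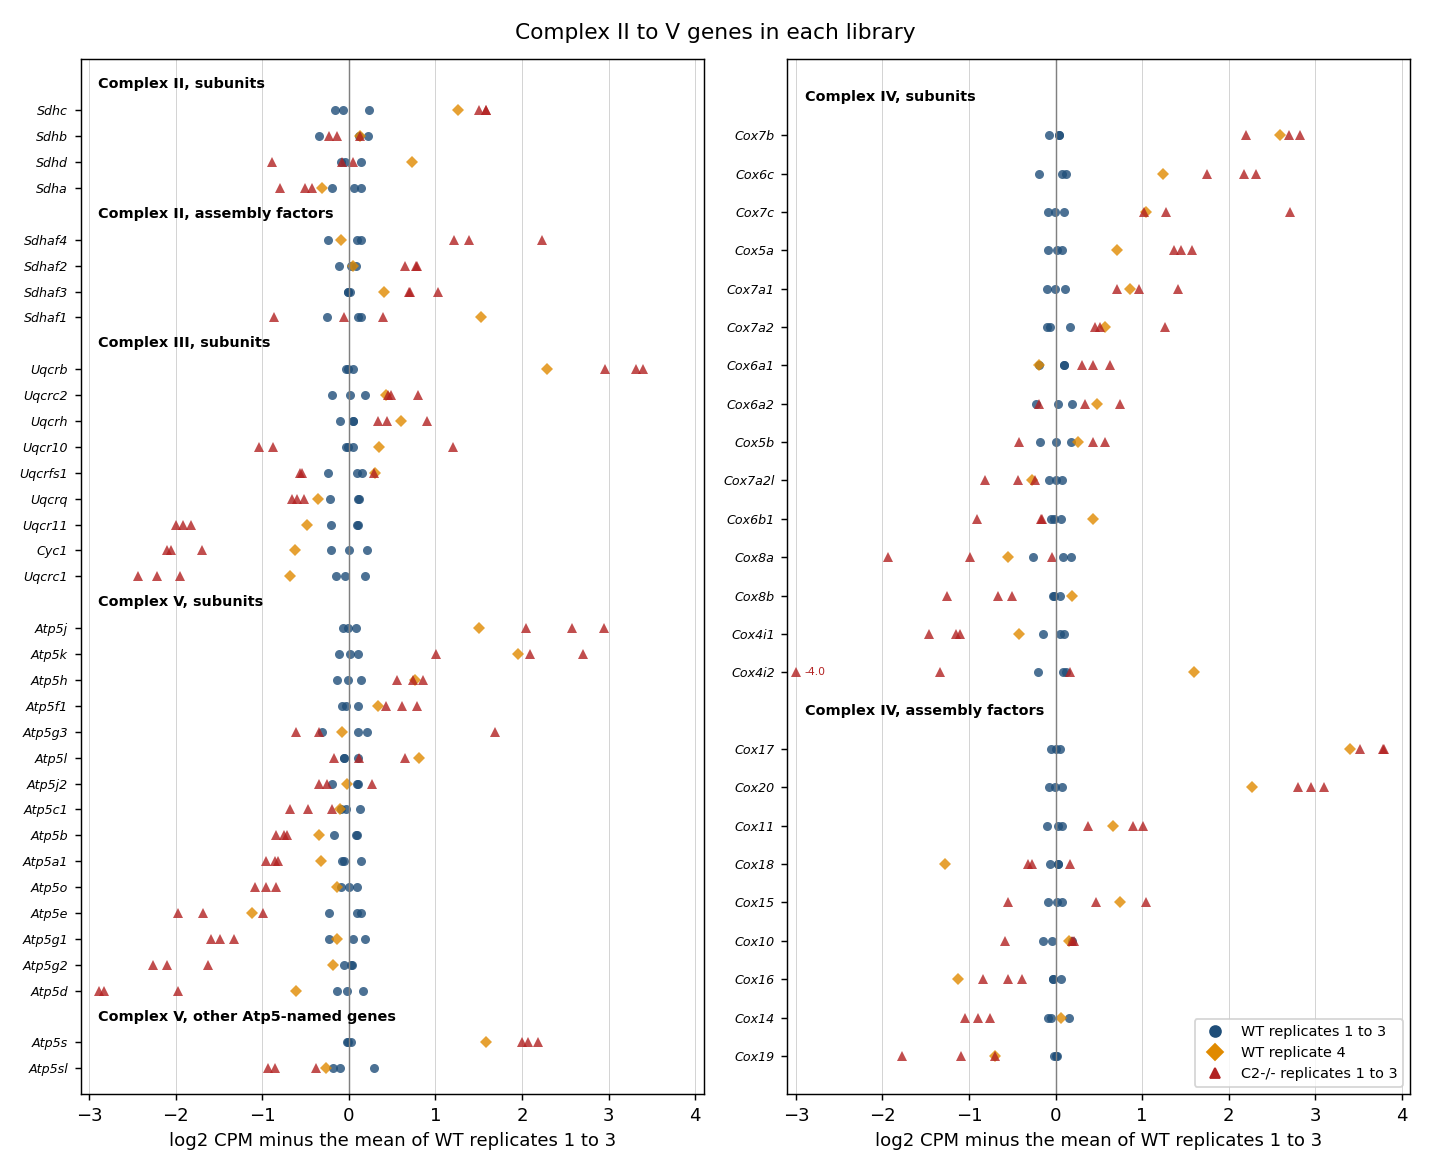
Log2 CPM of each of the 58 genes minus its mean in WT replicates 1 to 3 (horizontal axis), with circles for these 3 libraries, diamonds for WT replicate 4 and triangles for the C2-/- libraries. The diamond lies close to the triangles for Cox17, Cox7b and Atp5k and close to the circles for Atp5g1, Atp5g2 and Sdhaf4, and 1 triangle of Cox4i2 beyond the axis is drawn at its edge with its value.

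Complex V had more falls than rises, 7 and 2 among its 15 subunits, against 25.0% and 20.2% of all genes. After the GC correction 2 subunits fell and 2 rose, against 8.32% and 12.3% of all genes. The head and rotor of its soluble part held 4 of the falls. Atp5b, the beta subunit that makes ATP and the member with the highest WT level per length, stood at 11.96, 11.71 and 11.98 in WT replicates 1 to 3, with 11.54 in WT replicate 4, and 11.04, 11.17 and 11.14 in the C2-/- libraries. Atp5a1, the alpha subunit beside it, stood at 11.52, 11.50 and 11.72 in WT replicates 1 to 3, with 11.25 in WT replicate 4, and 10.62, 10.77 and 10.72 in the C2-/- libraries. In each, all C2-/- values lay below all WT values, and the changes were -0.68 ± 0.19 (SE) and -0.80 ± 0.18 (SE) (limma, adjusted p = 0.0144 and 0.0056), but -0.23 and 0.14 with the GC correction. Atp5c1, the rotating gamma subunit, was measured at 9.70, 9.64 and 9.86 in WT replicates 1 to 3, with 9.63 in WT replicate 4, and 9.05, 9.54 and 9.26 in the C2-/- libraries. It was lower in every C2-/- library, with a change of -0.42 ± 0.16 (SE) that did not pass (limma, adjusted p = 0.0583). Atp5d, the delta subunit at the foot of the rotor (chr10:80138632-80145818, plus strand), had the largest fall of all members, from 8.58, 8.46 and 8.76 in WT replicates 1 to 3, with 7.99 in WT replicate 4, to 6.63, 5.78 and 5.72 in the C2-/- libraries. WT replicate 4 was the lowest WT library and still above all C2-/- libraries, and the change was -2.41 ± 0.26 (SE) (limma, adjusted p = 0.000294), and -0.80 with the GC correction, which also passed. Atp5e, the epsilon subunit next to it, fell by 1.27, and had a change of -0.31 with the GC correction that did not pass, with WT replicate 4 at 6.19 inside the C2-/- range of 5.34 to 6.32.

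The 3 genes of the membrane ring's c subunit, which encode the same mature protein and differ in their import sequences, diverged. Atp5g1 fell from 8.93, 8.65 and 9.07 in WT replicates 1 to 3, with 8.75 in WT replicate 4, to 7.39, 7.29 and 7.55 in the C2-/- libraries. Atp5g2 fell from 6.47, 6.57 and 6.56 in WT replicates 1 to 3, with 6.35 in WT replicate 4, to 4.91, 4.43 and 4.27 in the C2-/- libraries. In both genes the 4 WT libraries lay close together above the C2-/- libraries, with changes of -1.44 ± 0.16 (SE) and -1.95 ± 0.20 (SE) (limma, adjusted p = 0.000302 and 0.00027). With the GC correction the change was -1.74 for Atp5g1 and 0.02 for Atp5g2. The corrected value of Atp5g1 rests on the GC content of a transcript of 4715 bases, beside 753 for Atp5g2, and other transcripts were not tested. Atp5g3 stood at 9.04, 8.62 and 9.14 in WT replicates 1 to 3, with 8.86 in WT replicate 4, and 8.33, 10.62 and 8.59 in the C2-/- libraries. It did not pass, with C2-/- replicate 2 the highest of the 7 libraries and the other C2-/- libraries the lowest, and the change of 0.27 became -0.45 without C2-/- replicate 2. The ratio of Atp5g1 to Atp5g3 was -0.11, 0.03, -0.08 and -0.11 on the log2 scale in WT replicates 1 to 4 and -0.94, -3.34 and -1.04 in C2-/-. All C2-/- libraries lay below all WT libraries, a difference of -1.70 with p = 0.0286 in the exact permutation test, the smallest it can give, and 0.171 adjusted over the 6 ratios. Without C2-/- replicate 2 the difference was -0.92. The ratio of Atp5g1 to Atp5g2 differed by 0.51 (exact permutation p = 0.0571, adjusted 0.171) and by -1.76 with the GC correction.

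The peripheral stalk of complex V moved both ways. Atp5j, coupling factor 6 (chr16:84827866-84835625, minus strand), had the largest rise of the complex, with 8.37, 8.42 and 8.52 in WT replicates 1 to 3, with 9.94 in WT replicate 4, and 10.48, 11.01 and 11.39 in the C2-/- libraries. The C2-/- libraries lay above WT replicate 4, which lay above the other WT libraries, and the change was 2.15 ± 0.37 (SE) (limma, adjusted p = 0.00182) and 3.33 with the GC correction. Some 12.7% of its exon bases lie in exons of Gabpa on the other strand. Atp5o, the subunit that ties the stalk to the head, fell by 0.93 without overlap and had a change of -0.10 with the GC correction. Some 50.3% of its 50-base stretches occur in other annotated entries, among them another entry named Atp5o. Atp5f1 and Atp5h, subunits b and d of the stalk, had changes of 0.52 and 0.52, of which Atp5f1 had an adjusted p of 0.0292 in limma without reaching the fold. Other genes share 38.7% and 47.9% of their 50-base stretches. Among the small membrane subunits Atp5k, subunit e, rose by 1.44, and by 2.29 with the GC correction, with WT replicate 4 at 8.44 inside the C2-/- range of 7.49 to 9.19. Atp5j2 and Atp5l, subunits f and g, had changes of -0.11 and -0.01, and 84.8% of the stretches of Atp5l occur in other genes, 12 of them pseudogenes.

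The 2 Atp5-named genes that encode no structural subunit went opposite ways. Atp5s, also called coupling factor B, stood at 3.93, 3.94 and 3.98 in WT replicates 1 to 3, with 5.54 in WT replicate 4, and 6.03, 6.13 and 5.95 in the C2-/- libraries. WT replicate 4 lay nearer the C2-/- libraries, and the change was 1.69 ± 0.37 (SE) (limma, adjusted p = 0.00543), and 0.62 with the GC correction, which did not pass. Atp5sl, whose product takes part in complex I assembly, stood at 5.59, 5.51 and 5.99 in WT replicates 1 to 3, with 5.43 in WT replicate 4, and 5.31, 4.76 and 4.84 in the C2-/- libraries. It fell without overlap, by 0.66 (limma, adjusted p = 0.033), and had a change of 0.12 with the GC correction. The call of Atp5sl was lost without any 1 of WT replicates 1 to 3 or C2-/- replicates 2 and 3 (-0.70 to -0.54), that of Atp5k without any 1 of WT replicates 1 to 3 or C2-/- replicates 1 and 2 (1.06 to 1.37), and that of Atp5b without WT replicate 1 or 3 (-0.63 and -0.62).

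Promoters of Atp5k and Atp5g2, the complex V subunits with the largest rise and the largest fall among those with a single promoter sequence, are shown to compare a member of each direction (GRCm38.p6, chr5:108434350-108434649, minus strand, and chr15:102670998-102671297, minus strand, from RefSeq). Both hold GCATGCGC with its overlapping reverse complement, and that of Atp5k also CCGGAAG on the other strand. These letters are in capitals.
Atp5k: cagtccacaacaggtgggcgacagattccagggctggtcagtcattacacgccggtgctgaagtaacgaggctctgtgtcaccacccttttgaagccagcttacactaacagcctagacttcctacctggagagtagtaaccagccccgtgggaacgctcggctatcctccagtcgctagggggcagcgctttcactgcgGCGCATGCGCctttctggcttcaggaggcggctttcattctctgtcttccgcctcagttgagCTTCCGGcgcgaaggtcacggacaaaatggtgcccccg
Atp5g2: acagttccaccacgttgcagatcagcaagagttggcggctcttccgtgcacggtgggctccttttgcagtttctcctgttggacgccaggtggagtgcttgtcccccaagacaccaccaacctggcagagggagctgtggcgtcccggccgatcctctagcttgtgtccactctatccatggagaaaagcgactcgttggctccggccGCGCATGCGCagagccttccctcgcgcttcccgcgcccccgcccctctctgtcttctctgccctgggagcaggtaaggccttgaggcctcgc

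Over the 46 members with a promoter sequence, GCATGCGC (searched for nuclear respiratory factor 1) occurred on either strand in 7 or 15.2%, against 5.99% of the 9329 genes of the table with a sequence. CCGGAAG (searched for GABPA) occurred in 20 or 43.5%, against 19.9%, and AAGATGGC (searched for YY1) in 6 or 13.04%, against 5.30%. The 3 words do not contain each other. By direction, GCATGCGC occurred in 1 of 10 members that rose and 3 of 12 that fell, CCGGAAG in 4 of 10 and 3 of 12, and AAGATGGC in 2 of 10 and 1 of 12. These are matches of letters and not measured binding.

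WT replicate 4 stood apart from the other WT libraries in the members that rose. In 11 of the 14 risen members (78.6%) its value was nearer the C2-/- mean than the mean of WT replicates 1 to 3, against 798 (32.3%) of all genes that rose and 8 of 12 (66.7%) risen complex I subunit genes, and the difference from complex I was not tested. The exceptions were Sdhaf4, Sdhaf2 and Cox5a. Over the 14 members the median of WT replicate 4 minus the other WT libraries was 1.38 on the log2 scale, and that of C2-/- minus WT replicate 4 was 0.65. Among the 15 members that fell, WT replicate 4 was nearer C2-/- in 2 (13.3%), Atp5e and Cox19, against 14.4% of all genes that fell, with medians of -0.34 and -0.96. The groups overlapped in 5 called members, Cox7b, Cox7c, Cox7a1, Atp5k and Atp5e, and in each of them WT replicate 4 alone of the WT libraries lay inside the C2-/- range. Whether the shared depth of WT replicate 4 and the C2-/- libraries has a part in this was not tested.

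Without WT replicate 4, 19 members were higher and 16 lower, against 23.5% and 26.6% of all genes. The 14 and 15 members called in all libraries stayed among them. The added rises were Sdhaf3, Cox7a2, Cox11, Atp5f1 and Atp5h, and the added fall was Uqcrq. Set against WT replicate 4 by itself, as values without a test, the C2-/- mean differed by 0.30 for Cox17, -0.02 for Cox7b, -0.02 for Atp5k and 0.18 for Cox7a1, and by -1.94 for Atp5d, -1.82 for Atp5g2, -1.52 for Uqcrc1 and -1.34 for Atp5g1. In Cox7b, Atp5k and Cox7a1 WT replicate 4 lay inside the C2-/- range, in Cox17 just below it, and in the other 4 above every C2-/- library.

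**Figure D3:**
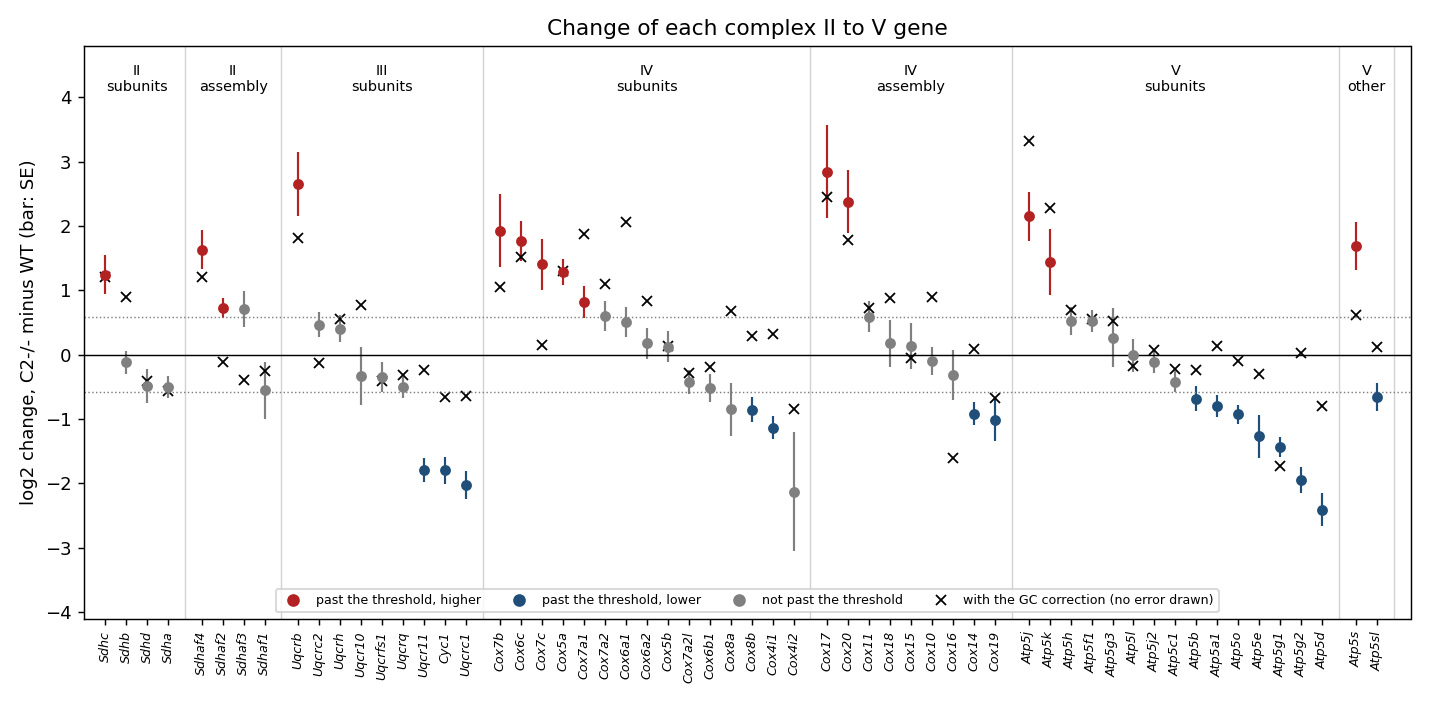
Log2 change of each of the 58 genes, C2-/- minus WT (vertical axis, limma on 4 and 3 libraries), with bars for 1 SE, dotted lines at the fold of 1.5 and crosses for the change after the GC correction. The 14 rises and 15 falls past the threshold are coloured, and the crosses of many falls, such as Atp5g2 and Uqcr11, lie near 0.

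The change also followed the base composition of the transcripts. Transcript GC content had a median of 45.9% over the members that rose, 54.9% over those that fell and 50.1% over the others. Spearman's rho between change and GC content was -0.61 over the 58 members and -0.68 over 12171 genes, and that between WT replicate 4 minus the other WT libraries and GC content was -0.42 over the members. These coefficients are across genes of the same 7 libraries and are given as a description. With GC content fitted out of each library, 15 members were higher and 5 lower, against 12.3% and 8.32% of all genes. Of the calls above, 10 rises and 4 falls stayed (Uqcrc1, Cyc1, Atp5g1 and Atp5d), and no member was called in the opposite direction. Sdhb, Cox6a1, Cox6a2, Cox7a2 and Cox10 were added as rises and Cox16 as a fall, the last on 16, 18 and 37 reads in the C2-/- libraries. Atp5j, Cox7a1 and Atp5k rose at GC contents of 56.0%, 55.3% and 53.9%, and Atp5g1 fell at 46.8%, against the trend of the other members. The GC content of Atp5g1 is that of a transcript of 4715 bases, beside 753 for Atp5g2 and 723 for Atp5g3. In it 11.6% of the 50-base stretches occur in other genes, 366 in number. Its corrected values rest on this transcript, and other transcripts were not tested. The part of base composition in these changes was not tested.

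**Figure D4:**
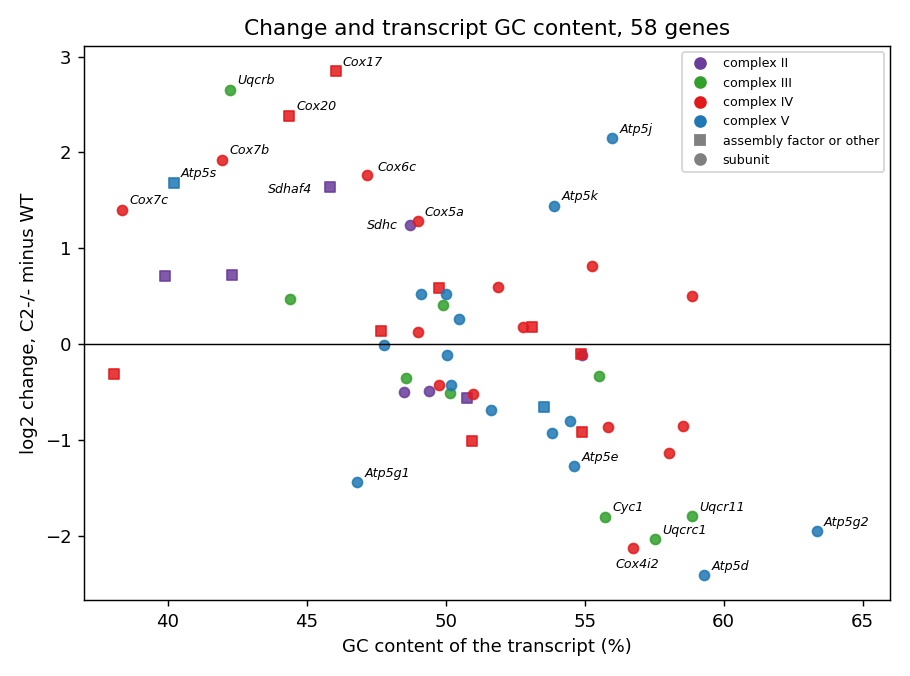
Log2 change, C2-/- minus WT (vertical axis), against the GC content of the transcript in percent (horizontal axis) for the 58 genes, coloured by complex, with names where the change exceeded 1.2 in size. Rises gather at low and falls at high GC content, with Atp5j, Atp5k and Atp5g1 among those away from this trend.

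Other genes of the pathway also moved in both directions. Of 4 electron carriers, Cycs (cytochrome c) rose by 1.14 and Etfa by 1.29, Etfb, its partner in the electron-transfer flavoprotein, fell by 1.17, and Etfdh had a change of 0.20. With the GC correction Cycs stood at 0.14, Etfa at 0.76 and Etfb at 0.16, so that the sign of Etfb turned. Of 26 assembly and associated factors outside the naming rule, 8 rose and 5 fell, against 20.2% and 25.0% of all genes. Usmg5, a small protein of the ATP synthase, rose by 2.95 with values of 7.20, 7.10 and 7.31 in WT replicates 1 to 3, with 9.42 in WT replicate 4, and 10.28, 10.80 and 11.02 in C2-/-. Coa6, another copper-handling factor, rose by 2.34 with 3.25, 3.26 and 3.21, then 5.26, and 5.72, 6.29 and 6.23. WT replicate 4 lay above the other WT libraries in both. Taco1, which activates translation of subunit 1, fell by 1.90, and Coa7 by 1.26. GC-corrected, the 8 rises stood at 0.11 to 2.15 and the 5 falls at -1.29 to 0.54, with Taco1 at -1.15, Coa7 at -1.29 and Uqcc2 turning sign. Of 7 regulators of mitochondrial genes, Ppargc1a, Yy1, Gabpa and Tfam rose by 1.61, 1.03, 0.69 and 0.63, Esrra fell by 2.42, and Nrf1 and Ppargc1b did not pass. With the GC correction the changes of Ppargc1a, Yy1, Gabpa, Tfam and Esrra were 0.70, 1.31, -0.25, 0.09 and -0.57, that of Nrf1 went from -0.64 to -0.29 and that of Ppargc1b from 0.55 to 1.98.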

How the data were processed

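RNA of TA muscle (RNA integrity number 8 to 10) was selected on oligo(dT) beads and sequenced as DNA nanoballs. By the submitters' processing notes, the authors aligned reads to GRCm38.p6 with HISAT, counted them with featureCounts 1.5.2, scaled libraries by edgeR's TMM and deposited log2 CPM values for 12239 genes. A second deposited table, holding the authors' own comparison, was not used. The treatment of strand and of multiply mapped reads is not given in the sources used here.

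Each log2 value gave a whole number of reads plus 0.5 (100% within 0.01 read in all 7 libraries), so that 3 reads stood at 0.195 to 1.12 CPM. Such floors cover counting error only. The added 0.5 read stands for more CPM in the shallow C2-/- libraries than in WT replicates 1 to 3. For genes with few reads, falls in C2-/- are thus understated on this scale and rises can be overstated. Limma 3.58.1 (R 4.3.3, lmFit and eBayes with trend) tested genotype on the log2 values, two-sided, with Benjamini-Hochberg adjustment over all genes, after tests on simulated data. The labels number the libraries as separate mice only by title, so p-values measure the spread between these samples. The members, gene lists and tests were chosen with earlier results of these data known.

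Full values are given for the largest rise and fall per complex, the paralog pairs and the core subunits, and others by range, count or change. Length and GC content came from the longest coding transcript of GENCODE M21 (12171 genes, all 58 members), and promoters from RefSeq (46 members). The GC correction fitted a natural spline with 5 degrees of freedom per library. Alternatives were median centring, quantile normalization, a mean log2 value of at least 3, 2 reads added before the log, voom on recovered reads, eBayes without trend, a replicate block and leaving out each library. Mitochondrially encoded subunits, brown adipocyte markers, Cox6b2, Pet117 and Mp68 are not analysed here.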

Additional observations from a re-analysis of the deposited data

Results flagged for a closer look

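Among the 4 WT libraries, 13 of 64 values tested (58 genes and 6 paralog ratios) had 1 library far from the other 3 by Dixon's gap-to-range ratio at its 95% critical value. Chance gives about 1 in 20, or 3.2, and the values are not independent because they come from the same libraries. In all 13 the library was WT replicate 4, above the others in 9 and below in 4. Above them were Uqcrb at 10.54 log2 CPM against 8.21 to 8.30, Cox7b at 10.99 against 8.32 to 8.44, Cox17 at 8.32 against 4.88 to 4.97, and Cox20 at 7.24 against 4.89 to 5.04. Cox7c stood at 8.24 against 7.10 to 7.29, Atp5j at 9.94 against 8.37 to 8.52, Atp5k at 8.44 against 6.37 to 6.60, Atp5s at 5.54 against 3.93 to 3.98 and Sdhaf3 at 3.43 against 3.02 to 3.04. Below them were Cox16 at 2.22 against 3.31 to 3.41, Cox18 at 2.84 against 4.06 to 4.15, Cox19 at 3.73 against 4.41 to 4.45, and the log2 ratio of Cox4i1 to Cox4i2 at 5.84 against 7.79 to 7.91. WT replicate 4 was also the shallowest WT library, at 4683853 reads, and the part of depth in these values was not tested.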

How the results depend on the processing

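No member called in all libraries was called in the opposite direction under any alternative run. Under the GC correction 5 members were lower, and 1491 genes were higher and 1013 lower over the whole table. With the GC correction and WT replicate 4 left out, an alternative added after the data were seen, 21 members were higher and 6 lower, and 1944 genes were higher and 1183 lower over the table. The median change of the members moved to 0.14 with the GC correction. The Cox6a1 to Cox6a2 ratio then differed by 1.23 and passed unadjusted, and that of Atp5g1 to Atp5g2 turned to -1.76. The latter rests on the transcript taken for Atp5g1.

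Changes that turned sign with the GC correction, and in brackets without WT replicate 4 as well, were Uqcr10 0.78 (0.96), Cox10 0.90 (1.02), Cox14 0.10 (0.20), Atp5g2 0.021 (0.14), Atp5a1 0.14 (0.14), Cox8a 0.67 (0.65), Sdhaf2 -0.11 (-0.17), Sdhb 0.90 (1.01), Atp5j2 0.075 (0.10), Sdhaf3 -0.39 (-0.37), Atp5sl 0.12 (0.13), Uqcrc2 -0.13 (-0.071), Cox8b 0.30 (0.44) and Cox4i1 0.33 (0.34), with Cox15 at -0.050 under the first and Sdhaf1 at 0.16 and Atp5l at 0.024 under the second. Under median centring Cox10 turned to 0.062, Sdhb to 0.048, Atp5j2 to 0.054 and Atp5l to 0.15. Quantile normalization gave 13 members higher and 20 lower, against 23.6% and 22.6% of all genes, and turned Cox5b to -0.10 and Cox6a2 to -0.060, and voom turned Atp5l to 0.025. The causes were not tested.

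The replicate block gave 18 members higher and 17 lower, against 21.7% and 26.5% of all genes, and turned Cox18 to -0.14 and Atp5l to 0.20. WT replicate 4 has no partner in that fit. Deviations of same-numbered libraries from their group means correlated at 0.05, -0.06 and -0.05. These values show no pairing by number but cannot exclude it, as the WT mean includes WT replicate 4, which stood apart.

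Leaving out 1 library gave 12 to 19 members higher and 12 to 16 lower, against 15.5% to 23.5% and 17.9% to 26.6% of all genes. Small changes turned sign in some of these fits, over which the change ran for Cox5b from -0.064 to 0.44, Uqcr10 from -1.05 to 0.073, Cox10 from -0.23 to 0.16, Cox15 from -0.23 to 0.57, Atp5g3 from -0.45 to 0.69, Cox18 from -0.14 to 0.30, Atp5j2 from -0.29 to 0.0076, Cox6a2 from -0.046 to 0.42, Atp5l from -0.23 to 0.20. Calls that did not hold in every one of these fits were those of Cox7b, Cox7c, Cox7a1, Atp5k, Cox19, Atp5b and Atp5sl, the rest held in all 7. Quantile normalization lost the calls of Sdhaf2 (0.58), Cox7a1 (0.58), Atp5k (1.23) and Atp5b (-0.37). Median centring lost those of Atp5b (-0.52), Atp5sl (-0.50) and Cox19 (-0.85). Limma without trend kept 11 of the 14 rises and 14 of the 15 falls.

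Of the 29 members that did not pass, 21 passed under at least 1 alternative. Quantile normalization added Atp5c1 -0.71, Cox6b1 -0.76, Sdhd -0.72, Sdha -0.76, Uqcrfs1 -0.64, Uqcrq -0.73, Cox6a1 0.61 and Sdhaf3 0.92, and median centring Atp5f1 0.69, Atp5h 0.69, Cox11 0.75, Cox6a1 0.67, Cox7a2 0.76, Sdhaf3 0.87 and Uqcrc2 0.63. Voom added Cox11, Cox7a2 and Sdhaf3, limma without trend Sdhaf3, and the replicate block Atp5f1, Atp5h, Cox11, Cox7a2, Cox8a and Uqcrq. Leaving out a C2-/- library added Uqcrfs1 -0.63 and Atp5f1 0.62 (replicate 1), Cox11 0.78 (replicate 2), and Cox4i2 -3.08, Cox8a -1.32 and Uqcr10 -1.05 (replicate 3). With the GC correction and without WT replicate 4, Sdha -0.64 and Uqcrh 0.74 were among those added, and Sdhb and Cox10 passed with the GC correction after turning sign.

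Counts in C2-/- rest on 2613277 to 4917936 reads. Members whose values rest on few of them include Cox4i2, Cox16, Cox19, Cox8a, Cox18, Sdhaf1 and Sdhaf3.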
